A study of Medicago sativa with 24 samples.

Results

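Gene transcription in leaves of diploid (2x) alfalfa hybrids was compared with that of both their parents on 15 of the 24 arrays of the series, 9 of the 3 hybrids (S8-2x, S16-2x, S24-2x) and 6 of the parents (PG-F9, 12P). The members were the arrays that carry these genotypes in their labels. PG-F9 is a diploid Medicago sativa subsp. falcata plant used as seed parent, and 12P a diploid coerulea × falcata plant used as pollen parent. Both are meiotic mutants that form reduced and unreduced (2n) gametes, and the hybrids are full sibs of the cross PG-F9 × 12P that stayed diploid. All plants were multiplied by cuttings and grown outdoors under a screen with complete randomization, and each of the 3 replicates of a genotype was a bulk of leaves of 2 cloned plants, so that a genotype is 1 clone and replicates measure the spread within it. The tetraploid (4x) full sibs from unreduced gametes (S29-4x, S48-4x and S60-4x, 9 arrays) are given beside the 2x values, and they entered only the 2x against 4x comparison and a fit on all 24 arrays, whose counts are in the closing section.

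Crossing 2 plants brings different alleles of each gene together in 1 nucleus. Where the alleles of both parents are transcribed in the hybrid as they were in the parents, the hybrid lies near the mean of the parents, which is called additive transcription. A deviation from the parental mean is called nonadditive, and it can lie between the parents, at the level of one of them or outside both. Alfalfa is outcrossed and its plants are heterozygous, and full sibs of one cross therefore inherit different allele combinations.

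The arrays carried probes designed on Medicago truncatula sequences, so that a value depends both on the amount of transcript and on how well the M. sativa sequence matches the probes. Each value is an intensity summarized over the probes of a gene, given here as log2. In bulks of whole leaves, fewer cells of a type and less RNA per cell cannot be told apart. The median intensity of the 15 arrays was between 500.6 and 527.7, replicate arrays of a genotype correlated at 0.987 to 0.993 on average, and 66.0% to 79.1% of the genes exceeded all negative controls of their array. The 8 leaf markers (Rubisco small subunit, PsaD and chlorophyll a/b binding proteins) had a mean log2 intensity of 10.08, 11.46 and 12.34 (lowest, median and highest array) in the parents and of 10.19, 10.55 and 10.85 in the hybrids, and 0 of them were called. The array means of 6 genes that respond to stress or wounding (heat shock proteins and lipoxygenases) were 8.95, 10.34 and 10.62 in the parents and 8.24, 8.65 and 9.08 in the hybrids, again with 0 called. Part of this gap came from the Hsp70 gene TC172620 of 12P described below, and the part of these levels in the results that follow was not tested. All genes of both sets are among those the paper lists as transcribed less in the diploid than in the tetraploid hybrids. That list was drawn from the same hybrid arrays, so that low hybrid values are partly built into the choice of these genes. Their levels are therefore no independent gauge of leaf tissue or stress at harvest.

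Of 41527 genes, 76 (0.183%) differed between the 9 hybrid and the 6 parental arrays, at an adjusted p under 0.05 in limma and an absolute log2 difference over 1, that is, more than a doubling or halving. The differences are given as hybrids minus parents. Transcription was lower in the hybrids for 53 genes (0.128% of all genes) and higher for 23 (0.0554%). The lower genes included 5 of the disease resistance group, among them a gene annotated for Nod factor perception. Also lower were all 3 phosphorylases with an annotation, 2 F-box proteins, an Hsp70 and an alternative oxidase. The higher genes included ferritin, a metal transporter of the NRAMP family, 3 cytochromes P450, a chalcone synthase family gene and a retrotransposon gag gene. Median differences were -1.33 among the lower and 1.30 among the higher genes, against -0.006 over all genes.

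**Figure D1:**
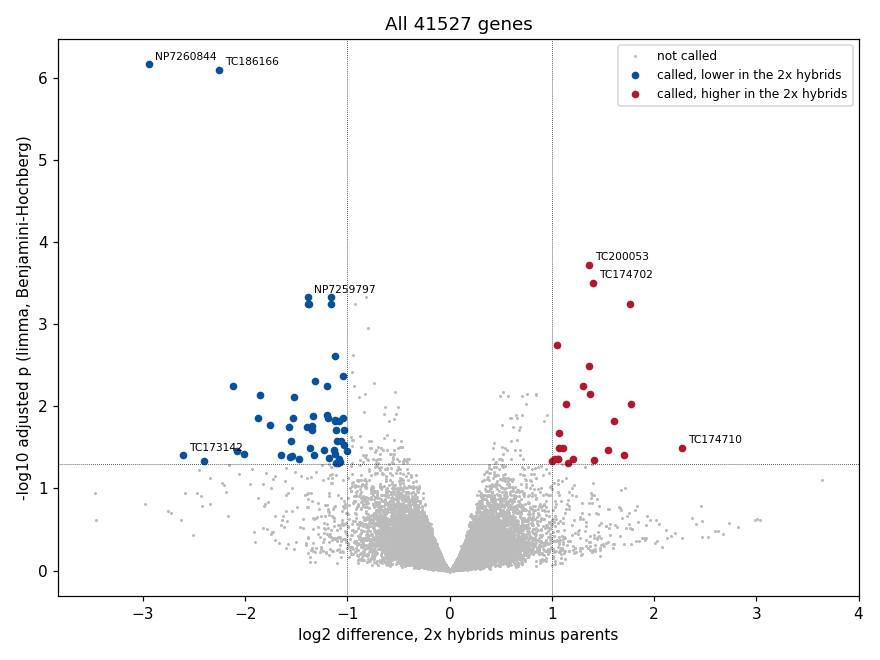
Log2 difference (2x hybrids minus parents, horizontal axis) against -log10 of the adjusted p (vertical axis) for each of the 41527 genes, with the thresholds as dotted lines. The 76 called genes are filled, 53 to the left and 23 to the right, and NP7260844 and TC186166 stand highest, with adjusted p of 6.83e-07 and 7.97e-07.

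In all 76 genes the 3 hybrid means lay on the same side of both parental means, below both for the 53 and above both for the 23. Over all genes this position was taken by 8.26% (below) and 6.26% (above), but a call in the pooled fit favors it, so that the count is a description of the called genes. For 44 of the 76 genes (31 lower and 13 higher) no hybrid array overlapped with a parental array. Such separation was found for 245 genes in the whole set (0.590%), 0.364% with the hybrids below and 0.226% with the hybrids above. PG-F9 and 12P differed from each other in 15 of the 76 genes (19.7%), against 4770 of all genes (11.5%). The mean of the hybrids (12 lower genes) or of the parents (2 higher genes) was below the negative control level of 6.32 in 14 of the 76 genes, against 27.5% of all genes, and the sizes of those differences are bounded by background signal.

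These calls treat each array as an observation, although the arrays come from 5 genotypes. With the genotype as a random block 6 genes were called, and with the 5 genotype means as observations (2 against 3) 0 were called and 937 had an unadjusted p under 0.05 in limma. Between 41 and 93 genes were called when 1 array was left out (46 without PG-F9 replicate 3, 49 without S16-2x replicate 1, and 42, 41 and 47 without S24-2x replicate 1, 2 and 3), and 33 of the 76 genes were called in all 15 of these fits.

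The gene that stood farthest from both parents was NP7260844, a hypothetical protein with no named function. Its log2 intensity was 8.94 at the lowest, 9.10 at the median and 9.86 at the highest of the parental arrays, and 6.02, 6.25 and 6.90 in the hybrids. The groups did not overlap, and the hybrids were also apart from the 4x sibs, whose genotype means were 8.80, 8.90 and 8.76. The hybrid mean (6.34) was near the negative control level (6.32), with S8-2x (6.16) and S16-2x (6.28) below that level and S24-2x (6.57) above. Background signal therefore bounds how large a difference can appear in this gene. The difference was -2.95 ± 0.174 (SE, adjusted p = 6.83e-07), or 7.71-fold, and it was -3.12, -3.00 and -2.71 in S8-2x, S16-2x and S24-2x. It was among the 6 genes called with the genotype as a random block, with TC186166, TC194160 (an uncharacterized protein) and TC178846 (a sequence with no named function) among the lower genes, and TC174702 (named after an Arabidopsis locus) and TC200053 (no named function) among the higher genes. TC174702 was at 10.70, 11.12 and 11.23 (lowest, median, highest) in the parents and at 11.97, 12.34 and 12.80 in the hybrids, a difference of 1.40 ± 0.14 (SE, adjusted p = 0.000313). TC200053 had 7.66, 7.86 and 8.15 in the parents and 8.83, 9.33 and 9.70 in the hybrids, and differed by 1.37 ± 0.129 (SE, adjusted p = 0.000189).

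A function was named for 42 of the 76 genes, 29 lower and 13 higher. The names come from the text of the annotation that accompanied the study, which covers genes called in its own comparisons of these same samples. It holds 1019 of the genes tested, 514 of them with a named function. It is therefore no independent choice of genes, and the counts per gene group below are counts within it. Of the 514 genes with a named function 8.17% were called, against 0.183% of all genes. A called share near 8.17% is thus nothing particular to a group. Of the other called genes, 30 are hypothetical proteins, unplaced matches or genes with an empty annotation, and 4 are not in that annotation. The gene groups were set by words in the annotation, and a gene can be in more than 1 group.

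Genes of the disease resistance type had the most negative median of the 14 groups. Plants detect pathogens with intracellular receptors, many of which carry a TIR domain and leucine-rich repeats, and with receptor kinases at the cell surface. Words of the annotation placed 23 genes in this group. Of these, 5 were called and lower in the hybrids, among them TC186166, annotated for Nod factor perception. This was 21.7%, against 8.17% called (42 of 514) among the genes of the same annotation with a named function and 0.183% of all genes. In the group 0 genes were called and higher, and 18 did not pass. The group's median difference was -1.005, against -0.217 in the 514 genes with a named function. Of the 23 genes, 17 had a difference below 0 (73.9%, against 51.0% of all genes). In 11 the 3 hybrid means were below both parental means, as in 8.26% of all genes. Of 15 genes with TIR or disease resistance protein in the annotation, a set picked after the values were seen, 4 were called. All genes are no like baseline for the shares above, because the disease resistance group was drawn from genes the study called on these samples.

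Within this group the largest difference was that of TC186166, whose annotation reads Nod factor perception protein. Receptor kinases of that name recognize the lipochitooligosaccharide signals of rhizobia in legume roots. The parental arrays read 7.11, 7.47 and 7.70 (lowest, median, highest) and the hybrid arrays 4.74, 5.15 and 5.59. The groups were thus separated by more than the whole range of either, and the hybrid mean (5.19) was below the level of the negative controls (6.32), where background signal bounds how large a difference can appear. The difference was -2.26 ± 0.141 (SE, adjusted p = 7.97e-07), with -2.47, -2.03 and -2.28 in S8-2x, in S16-2x and in S24-2x, and the 4x means were 7.17, 7.05 and 7.24, near the parents.

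The TIR gene TC172864 was at 7.38, 8.12 and 8.80 in the parents and at 4.90, 5.73 and 6.81 in the hybrids, without overlap. Its difference was -2.12 ± 0.303 (SE, adjusted p = 0.00561), and the deviation was largest in S24-2x (-2.73, against -1.80 in S8-2x and -1.83 in S16-2x). A second TIR gene with the same annotation, TC185531, differed by -1.47 (adjusted p = 0.0434), with the hybrid arrays (5.49 to 7.57) reaching into the parental range (6.91 to 8.30), and was called in 3 of the 15 fits with an array left out. Whether these entries are separate genes or copies that share transcripts on the array was not tested, and the hybrid mean of both was below the negative controls.

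TC172654, a gene resembling the resistance gene MsR1 of alfalfa, read 8.61, 9.12 and 9.48 in the parents and 6.70, 7.64 and 8.52 in the hybrids. Its difference was -1.53 ± 0.233 (SE, adjusted p = 0.00768). Every hybrid array was below every parental array, and the parents had nearly the same mean (9.07 in PG-F9 and 9.14 in 12P). The 4x sibs were at 7.67, 7.87 and 7.46, close to the 2x hybrids, though the S48-4x arrays ran from 6.67 to 9.01. TC191533, with a TIR and an ATPase domain, had the smallest difference of the group's called genes (-1.005, adjusted p = 0.0351), was called singly only in S24-2x (-1.36), and was called in 5 of the 15 fits that left out an array.

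Several disease resistance genes that did not pass deviated in only some of the hybrids. The TIR gene TC194071 differed from the parental mean by -0.06 in S8-2x, -2.73 in S16-2x and -2.65 in S24-2x, and TC193949 by -0.10, -1.87 and -1.88. TC188775, with a TIR domain, was at -0.97, 2.13 and 1.56. Pathogenesis-related genes in the same group (a thaumatin-like protein, TC175139, and a pathogenesis-related transcription factor, TC184632) had differences of 1.06 and 1.14 that did not pass (adjusted p = 0.331 and 0.153).

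**Figure D2:**
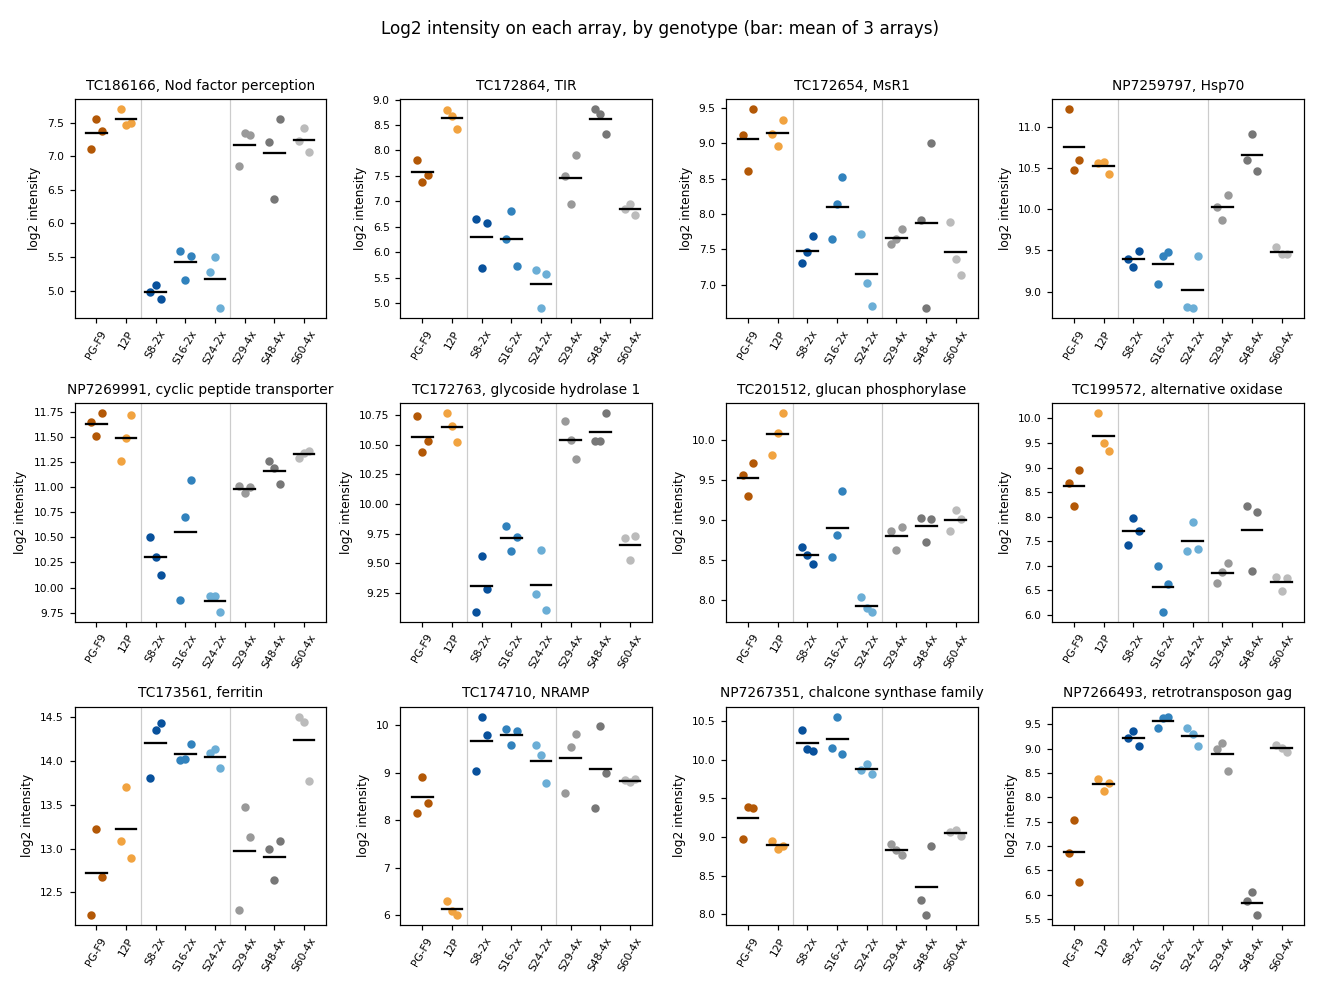
Log2 intensity (vertical axis) of 12 called genes on each array, in the parents (orange), the 2x hybrids (blue) and the 4x hybrids (gray), with a bar at the mean of the 3 arrays of a genotype. The first 8 genes are lower and the last 4 higher in the 2x hybrids. TC201512 is labeled as a glucan phosphorylase, but its annotation reads only phosphorylase. The 4x means lie near the parents for TC186166 and near the 2x hybrids for TC172654, where the S48-4x arrays range widely. For TC201512 the mean of the 4x hybrids (8.91) lies between those of the 2x hybrids (8.47) and the parents (9.81).

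The annotation named 3 phosphorylases. Only TC194164 is annotated as a glucan phosphorylase, an enzyme that releases glucose units from the ends of starch chains as sugar phosphate. TC201512 and TC197643 are annotated only as phosphorylase. This set was picked after its values were seen. All 3 annotated entries were called and lower in the hybrids, against 8.17% called among the genes with a named function and 0.183% of all genes. The annotation covers only genes the study called on these samples, so that any other phosphorylases on the array were not counted. TC201512 was at 9.30, 9.77 and 10.34 in the parents and at 7.86, 8.54 and 9.36 in the hybrids, with 1 hybrid array inside the parental range, and differed by -1.34 ± 0.219 (SE, adjusted p = 0.0133). TC197643 differed by -1.33 (adjusted p = 0.0394) and TC194164, the plastid L-2 isozyme, by -1.03 (adjusted p = 0.0299).

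In these 3 entries S16-2x deviated least, by -0.90, -0.71 and -0.72, while S24-2x was at -1.87, -1.95 and -1.15. The hybrids differed among themselves in TC201512 and TC197643 (F test in limma, adjusted p = 0.0123 and 0.0173) and did not pass in TC194164 (adjusted p = 0.359). TC201512 was called in all 15 fits with an array left out, the other entries in 3 and 4 of them. The first pair carry the same annotation, and whether they report 1 transcript was not tested.

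Among genes of protein folding and turnover, the chaperone Hsp70 (NP7259797) read 10.42, 10.57 and 11.21 in the parents and 8.80, 9.40 and 9.49 in the hybrids. The groups were fully apart and the hybrids alike, at -1.24, -1.31 and -1.62 from the parental mean, for a pooled difference of -1.39 ± 0.148 (SE, adjusted p = 0.000469). It was 1 of 11 heat shock and chaperone genes, of which 10 did not pass, and their median was -0.187. Of 29 proteolysis genes, 2 were called (6.9%, against 8.17% of the genes with a named function). Both are F-box proteins, which select proteins for ubiquitination. NP7256004 was at 7.38, 7.61 and 7.77 in the parents and 5.50, 6.21 and 6.72 in the hybrids (difference -1.38 ± 0.155, SE, adjusted p = 0.000569), with a hybrid mean below the negative controls. TC198314 differed by -1.34 (adjusted p = 0.0194), with 1 overlapping array, S8-2x replicate 3 at 10.93. The median of the proteolysis genes was -0.299.

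Respiration, detoxification and redox genes moved in both directions. Of 39 such genes 4 were lower, 4 were higher and 31 did not pass, with a median of -0.011. The called share was 20.5%, against 8.17% of the genes with a named function. Alternative oxidase, which passes electrons to oxygen in plant mitochondria without the cytochrome pathway, was among the lower ones. TC199572 read 8.22, 9.14 and 10.11 in the parents and 6.07, 7.34 and 7.97 in the hybrids, a difference of -1.87 ± 0.309 (SE, adjusted p = 0.0138) without overlap. The hybrids differed from each other (adjusted p = 0.0264), with -1.43 in S8-2x, -2.57 in S16-2x and -1.62 in S24-2x. Its 4x sibs were at 6.86, 7.73 and 6.67, near the 2x hybrids. The other 5 alternative oxidase entries did not pass, among them TC179108 (-1.94, adjusted p = 0.0576).

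Cytochromes P450, a large family of oxidases of hormone and secondary metabolism, held 5 called genes of 14 (35.7%, against 8.17% of the genes with a named function in the study's annotation and 0.183% of all genes). The set was picked after the values were seen, from an annotation that covers genes called by the study on these samples. TC185121 had the largest difference, -2.09 ± 0.406 (SE, adjusted p = 0.0351), from 8.58, 9.62 and 10.81 in the parents to 6.49, 7.61 and 8.39 in the hybrids. Its arrays did not overlap even though the parents differed by 1.81 between themselves (adjusted p = 0.00222). TC188536 was lower as well, by 1.06 on the log2 scale (adjusted p = 0.0268). TC184648 was higher, at 9.88, 10.60 and 11.33 in the parents and 11.35, 11.82 and 12.86 in the hybrids (difference 1.41 ± 0.291, SE, adjusted p = 0.045), and so were TC199769 (1.07, adjusted p = 0.021) and TC191264 (1.05, adjusted p = 0.0434). TC191264 is annotated as CYP707A17, and enzymes of the CYP707A group inactivate abscisic acid in Arabidopsis. TC199769 was called in 11, TC188536 in 8, TC185121 in 6, TC184648 in 4 and TC191264 in 3 of the 15 fits with an array left out. Only TC188536 of these was called with the replicate block, and TC184648 was not called with the parental mean on the linear scale.

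The group also held a pair of UDP-glycosyltransferases, which attach sugars to small molecules, with opposite signs. NP7267097 was higher in the hybrids (10.86, 11.46 and 12.26 against 12.31, 12.53 and 12.91, difference 1.07, adjusted p = 0.0322), although the parents differed by 1.08 (adjusted p = 3.62e-05), and all hybrids lay above the higher parent. This gene was called in 5 of the 15 fits with an array left out. It was not called with the replicate block or with the parental mean on the linear scale. TC178999, similar to HRA25, was lower (-1.05, adjusted p = 0.0139). 1-Cys peroxiredoxin (TC176842), a peroxide-reducing enzyme, was just above the threshold at 1.004 (adjusted p = 0.0463) and was called in 2 of the 15 fits. TC176842 too was not called with the replicate block or with the parental mean on the linear scale.

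Iron and metal genes were called in both directions, in a set of 4 picked after the values were seen. Ferritin, which stores iron in plastids, was higher in the hybrids. TC173561 read 12.24, 12.99 and 13.71 in the parents and 13.81, 14.09 and 14.44 in the hybrids. No arrays overlapped, the 3 hybrids had nearly the same deviation (1.23, 1.10 and 1.08), and the pooled difference was 1.14 ± 0.177 (SE, adjusted p = 0.00937). It was called in 14 of the 15 fits with an array left out.

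TC174710 is annotated as a natural resistance-associated macrophage protein, the family of NRAMP transporters that carry iron, manganese and other divalent metals. It had the largest positive difference of the called genes, 2.27 ± 0.429 (SE, adjusted p = 0.0318). PG-F9 and 12P themselves stood apart in this gene (8.48 and 6.12, adjusted p = 4.43e-05), and the hybrid arrays, from 8.78 to 10.18, were above 12P by far and above PG-F9 except for 1 overlap with its highest array (8.91). It was called in 6 of the 15 fits, and it was not called with the replicate block or with the parental mean on the linear scale. A metal transport protein, TC174246, was lower instead (-1.54, adjusted p = 0.0405, called in 5 of the 15 fits), and a heavy metal transport gene (TC200996) did not pass (-0.55, adjusted p = 0.514).

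Cell wall genes had 3 called members of 32, all lower, against a group median of 0.273. The called share of 9.38% was near the 8.17% of the genes with a named function. TC172763, a glycoside hydrolase of family 1 (the family of plant beta-glucosidases), was at 10.44, 10.60 and 10.77 in the parents and 9.09, 9.56 and 9.81 in the hybrids. The gap between the groups was wider than the parental range, and the difference was -1.17 ± 0.124 (SE, adjusted p = 0.000469). TC174987, with a glycoside hydrolase family 5 and a DNA methylase annotation, differed by -1.76 (adjusted p = 0.0167) with slight overlap (5.66 to 7.36 in the hybrids and 7.34 to 9.30 in the parents). TC173212, a polygalacturonase precursor of the pectin-cleaving type, differed by -1.18 (adjusted p = 0.0421) and was below the negative controls in the hybrids. It was called in 3 of the 15 fits with an array left out.

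In secondary metabolism, NP7267351 carries the C-terminal domain of chalcone and stilbene synthases, and chalcone synthase catalyzes the entry step of flavonoid synthesis. It read 8.85, 8.96 and 9.39 in the parents and 9.81, 10.11 and 10.56 in the hybrids. The difference was 1.05 ± 0.131 (SE, adjusted p = 0.0018), with every hybrid array above every parental one, while the 4x means (8.84, 8.35 and 9.06) were below those of all 2x hybrids. It was the 1 called gene of 22 in the phenylpropanoid and isoprenoid group, whose median was 0.350. TC173142, a carboxyl methyltransferase of the kind that makes methyl esters of plant hormones, had the opposite sign, -2.61 ± 0.519 (SE, adjusted p = 0.0394). It was called in 2 of the 15 fits with an array left out and was not called with the replicate block.

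NP7276836, the RPB5 subunit shared by the nuclear RNA polymerases, was at 6.44, 7.38 and 8.54 in the parents and 5.09, 5.63 and 6.16 in the hybrids, all below the parents. Its difference was -1.86 ± 0.278 (SE, adjusted p = 0.00727), with a hybrid mean below the negative controls and with 4x means of 5.04, 5.01 and 4.91. It was the 1 called gene of 45 in the transcription and DNA-binding group (median -0.470). Outside the words of that group, the homeobox-leucine zipper gene HAT3 (TC180330) was lower by 1.23 on the log2 scale (adjusted p = 0.034), and GRAS2 (TC192792), of the plant GRAS family of transcription regulators, was higher by 1.06 (adjusted p = 0.0444). HAT3 was called in 4 and GRAS2 in 2 of the 15 fits with an array left out.

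Of 14 protein kinases 1 was called. TC193850 ranged from 8.50 to 11.60 in the parents and from 5.95 to 8.54 in the hybrids (medians 9.67 and 7.24), with a difference of -2.41 ± 0.497 (SE, adjusted p = 0.0458). The groups touched only at their ends, but the call was kept in 2 of the 15 fits. NP7264687, similar to the chromatin-bound exchange factor RCC1, differed by -1.57 (adjusted p = 0.0414), and a helicase with a DEAD/DEAH box (NP7274254) by -1.08 (adjusted p = 0.0151), the 1 called gene of 29 of nucleic acids, translation and cell cycle (median -0.497). TC201281, with calcium-binding EF-hands, was higher by 1.55 (adjusted p = 0.0341). NP7264687 was called in 4, NP7274254 in 14 and TC201281 in 6 of the 15 fits. NP7264687 and TC201281 were not called with the replicate block, nor TC201281 with the parental mean on the linear scale.

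The word list for membrane transport held 17 genes, of which 2 (11.8%, against 8.17% of the genes with a named function) were called and lower (group median -0.220). It missed the metal transporters TC174710 (higher) and TC174246 (lower) described above. The cyclic peptide transporter NP7269991 read 11.26, 11.58 and 11.74 in the parents and 9.76, 10.12 and 11.07 in the hybrids, with no overlap and a difference of -1.32 ± 0.183 (SE, adjusted p = 0.00493). The aquaporin-like channel TC194885, of the water channel family, was at 9.60, 9.77 and 10.22 in the parents and 8.16, 8.80 and 9.53 in the hybrids. Its groups were apart as well (difference -1.10 ± 0.201, SE, adjusted p = 0.0262), but the hybrids differed (adjusted p = 0.00202), from -0.59 in S16-2x to -1.62 in S24-2x. A nodulin family gene, TC190281, was lower by 1.03 (adjusted p = 0.0194), and of the 9 nodulin and symbiosis genes it and TC186166 were called (22.2%, median 0.074).

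Mobile elements had 1 called gene of 17. The retrotransposon gag gene NP7266493 encodes the structural protein of such an element. Its values were 6.27, 7.83 and 8.38 in the parents and 9.06, 9.37 and 9.66 in the hybrids. All 9 hybrid arrays exceeded the parents, and the difference was 1.77 ± 0.275 (SE, adjusted p = 0.00932), with 1.64, 2.00 and 1.68 in the single hybrids. Among the 4x sibs S48-4x was at 5.84 and the others at 8.88 and 9.01. The other 16 mobile element genes did not pass, and the group's median was 0.221.

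The photosynthesis group (9 genes) and the oxylipin and lipid group (24 genes, among them 12 lipoxygenases) had 0 called genes but medians of -0.707 and -0.658. All 9 photosynthesis genes had a difference below 0, from -1.75 to -0.39, with adjusted p from 0.221 to 0.811. In the oxylipin and lipid group 19 of 24 genes had a difference below 0 (79.2%, against 51.0% of all genes), and in 12 the 3 hybrid means were below both parents, as in 8.26% of all genes. The median of the lipoxygenases, a set picked after the values were seen, was -0.835. For these shares all genes are no like baseline, because both groups were drawn from genes the study called on these samples. The leaf markers and some of the lipoxygenases were listed by the paper as lower in the diploid than in the tetraploid hybrids. Low hybrid values are thus partly built into the choice of these genes.

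**Figure D3:**
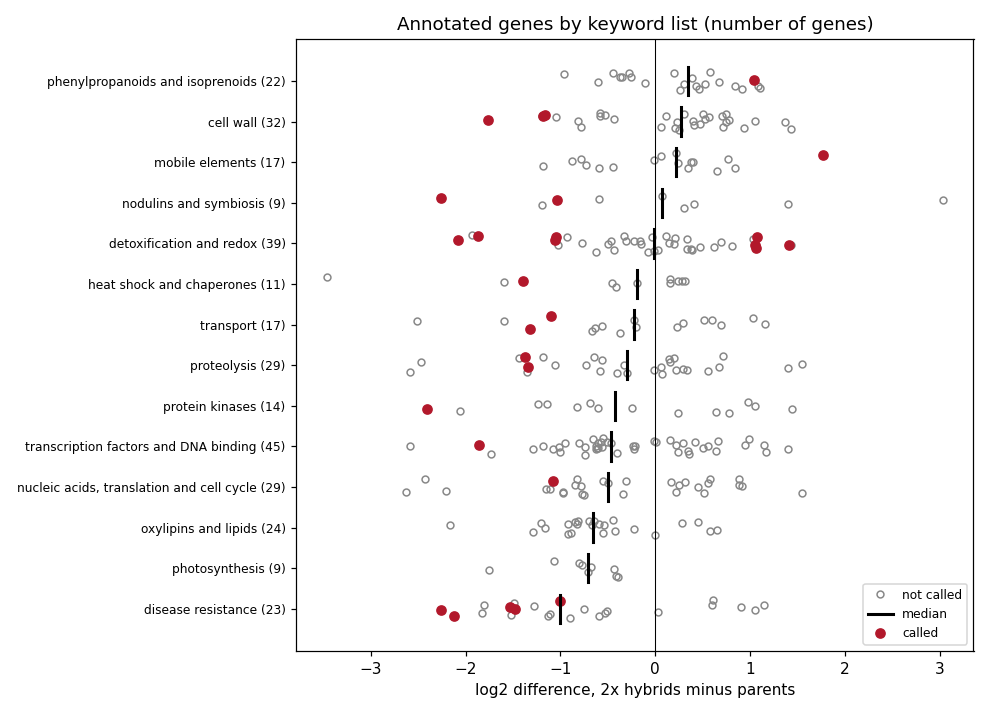
Log2 difference (2x hybrids minus parents, horizontal axis) of every annotated gene of the 14 groups (vertical axis, number of genes in parentheses), called genes filled and medians as black bars. The medians run from -1.005 in the disease resistance group to 0.350 in the phenylpropanoid and isoprenoid group, and called genes lie on both sides of 0 only in the detoxification and redox group.

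Called genes with no named function included neighbors on the same sequenced genomic clone. NP7267089, NP7267097 (the UDP-glycosyltransferase above) and NP7267098 share a clone and differed by -1.37, 1.07 and 1.76. NP7267098 was at 5.55, 5.99 and 6.90 in the parents and 7.29, 7.80 and 8.46 in the hybrids, without overlap (adjusted p = 0.000569), its parental mean lying below the negative controls. NP7251676 and NP7251686, on another clone, had differences of -1.10 and 1.38. Both signs thus occurred on each of these clones, and NP7267097 and NP7267098 had the same sign.

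The second question was whether the 3 hybrids deviated from the parental mean together. Each hybrid was compared singly with the mean of the parental genotype means, and these comparisons share the 6 parental arrays. S8-2x differed in 871 genes (2.10% of all genes; 476 lower and 395 higher), S16-2x in 789 (1.90%; 377 and 412) and S24-2x in 1622 (3.91%; 802 and 820). With the parental mean taken on the linear scale these splits became 725 lower and 115 higher, 568 and 156, and 1198 and 469. A gene could pass singly and not in the pooled comparison, because the pooled fit counts the difference between PG-F9 and 12P as spread.

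Of the 76 genes, 59 passed in S8-2x, 49 in S16-2x and 72 in S24-2x. They passed in all 3 hybrids for 33 genes (22 lower and 11 higher), in 2 hybrids for 38 and in 1 hybrid for 5, each time S24-2x. The median deviation of the lower genes was -1.25 in S8-2x, -1.10 in S16-2x and -1.52 in S24-2x, and that of the higher genes 1.22, 1.18 and 1.49. S24-2x had the largest deviation in 29 of the 53 lower and 12 of the 23 higher genes, S8-2x in 14 and 6 and S16-2x in 10 and 5. The weakest single deviations were -0.44 (TC198577 in S16-2x) and 0.63 (NP7268289, an oxygenase, in S8-2x). Each hybrid had the sign of the pooled difference in all 76 genes, which the choice of the genes by the pooled fit largely fixes, since spread among the hybrids counts there as error. Without the arrays of S24-2x 25 genes were called, 20 of them among the 76.

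**Figure D4:**
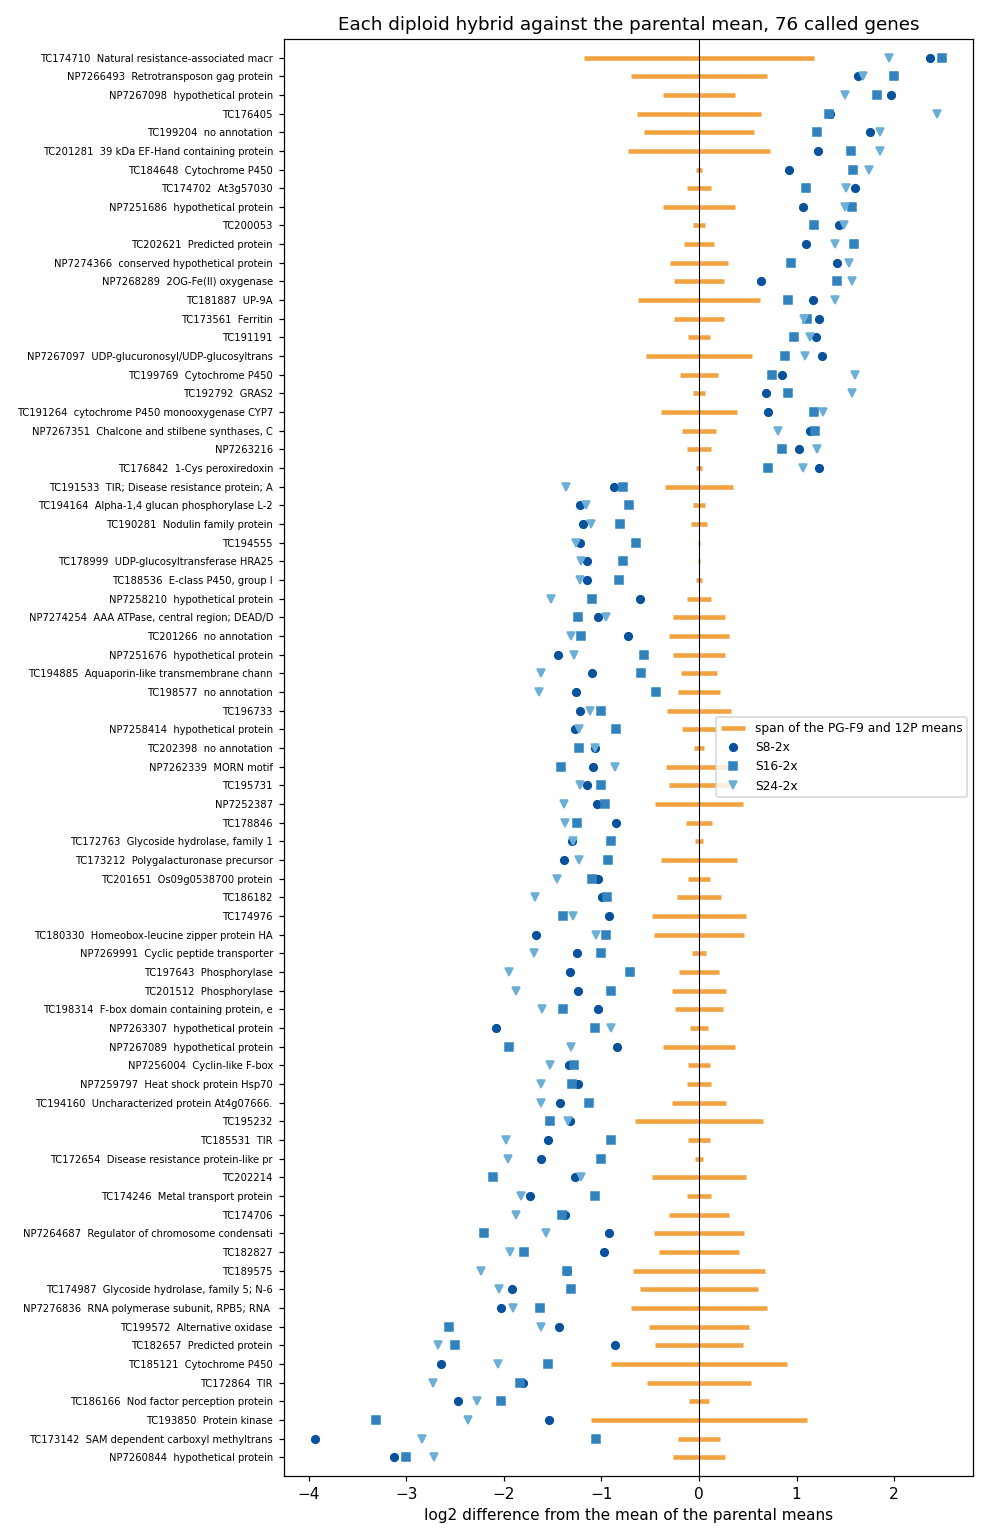
Log2 difference of S8-2x, S16-2x and S24-2x from the mean of the parental means (horizontal axis, mean of 3 arrays each) for the 76 called genes (vertical axis), with the span between the PG-F9 and 12P means as an orange line centered on 0. All symbols of a gene lie on the same side of its orange line, and S24-2x is the outermost symbol in 41 of the genes.

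The hybrids differed among themselves in 17 of the 76 genes (22.4%), against 6666 of all genes (16.1%) by the same F test, 15 in lower and 2 in higher genes. The median range over the 3 hybrid means was 0.56 in the 76 genes and 0.39 in all genes. The carboxyl methyltransferase TC173142 had the widest range. S8-2x was at -3.94 from the parental mean, S16-2x at -1.06 and S24-2x at -2.84 (adjusted p = 0.000338 for the difference among hybrids), and single hybrid arrays ran from 4.49 to 8.18. The protein kinase TC193850 was lowest in S16-2x (-3.31, against -1.53 in S8-2x and -2.37 in S24-2x, adjusted p = 0.00564).

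S8-2x also deviated less than its sibs in TC182657, a predicted protein (-0.86, against -2.50 and -2.68, adjusted p = 0.0014), which was called in the pooled comparison in 4 of the 15 fits with an array left out. In NP7263307, a hypothetical protein, it deviated most (-2.08, against -1.06 and -0.90, adjusted p = 0.000583). S24-2x was set apart in the cytochrome P450 TC199769 (1.60, against 0.85 in S8-2x and 0.75 in S16-2x, adjusted p = 0.0029) and in TC176405 (2.44, against 1.34 in both others, adjusted p = 0.0231). By contrast, the 3 deviations lay within 0.16 of each other in TC202398, a gene without annotation (-1.07, -1.23 and -1.07), and within 0.16 in ferritin.

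Over all genes, 241 (0.580%) passed in each of the 3 hybrids singly, 65 lower in all (0.157%), 101 higher in all (0.243%) and 75 with unlike signs. PG-F9 and 12P differed in 220 of these (91.3%, against 11.5% of all genes). All 3 hybrid means were below both parents in 41 and above both in 26, while in the remaining 174 at least 1 hybrid mean was not outside both parents on the side of its sibs. The pooled comparison called 33 of the 241 genes, and in 207 of the other 208 the parents differed. The 241 genes were found with the parental mean on the log2 scale. Their number on the linear scale, where fewer genes were higher in each hybrid, was not counted. Examples of the positions that the hybrids took in these genes follow. The genes named from here to the end were chosen after their values were seen.

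In some of them all 3 hybrids were at the level of the same parent. The Hsp70 gene TC172620 had means of 5.53 ± 0.274 in PG-F9 and 12.68 ± 0.214 in 12P (SD, n = 3), and of 5.39 ± 0.281, 6.01 ± 0.336 and 5.52 ± 0.412 in S8-2x, S16-2x and S24-2x. The hybrids thus read like PG-F9, below the negative controls, and the pooled difference of -3.46 did not pass (adjusted p = 0.239). A DEAD/DEAH box helicase, TC193238, was at 10.27 ± 0.3 in PG-F9, 4.80 ± 0.293 in 12P and between 4.89 and 4.93 in the hybrids, all at the level of 12P. The early nodulin 12B precursor TC191278 was instead high in PG-F9 (11.45 ± 0.299) and in the hybrids (11.02 to 11.91), and at 5.21 ± 0.332 in 12P. The exoglucanase TC194979 was nearer to 12P (12.95 ± 0.127) with hybrids from 12.40 to 12.49, against 9.06 ± 0.459 in PG-F9. Where the parents differ this much, the parental mean on the log2 scale lies below the mean of the intensities. The upward deviations of TC191278 and TC194979 are therefore smaller on the linear scale, where they were not tested singly.

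Others were outside both parents but missed the pooled threshold. A cytosine-specific methyltransferase, TC176960, of the enzymes that methylate DNA, was at 11.84 ± 0.166 in PG-F9 and 9.71 ± 0.527 in 12P (SD, n = 3). The hybrids were below both, at 9.34 ± 0.31, 9.02 ± 0.119 and 8.84 ± 0.443, which is -1.44, -1.75 and -1.94 from the parental mean (adjusted p = 0.00181, 0.000472 and 0.000147 singly, and 0.0697 pooled). The distance of the hybrid means from 12P was of the order of the SD of 12P. The alternative oxidase TC179108 was likewise below both parents, at 6.61, 6.44 and 6.06 against 7.33 and 9.28.

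In the 75 genes with unlike signs 1 hybrid went against its sibs, and it was S8-2x in 55 of them, S24-2x in 13 and S16-2x in 7. A CCAAT-binding transcription factor, TC177221, was at 8.88 ± 0.233 in PG-F9 and 5.98 ± 0.0501 in 12P (SD, n = 3). S8-2x was at 9.08 ± 0.253, like PG-F9, and S16-2x and S24-2x were at 5.52 ± 0.349 and 5.49 ± 0.298, like 12P. The hAT-type gene NP7273710 (a dimerization domain of DNA transposons) split in the same way, with 9.66 in PG-F9, 6.02 in 12P, 9.65 in S8-2x, 6.08 in S16-2x and 6.48 in S24-2x. In such genes the mean of the hybrids hides their difference, and the pooled differences were -0.74 and -0.44 (adjusted p = 0.779 and 0.891).

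**Figure D5:**
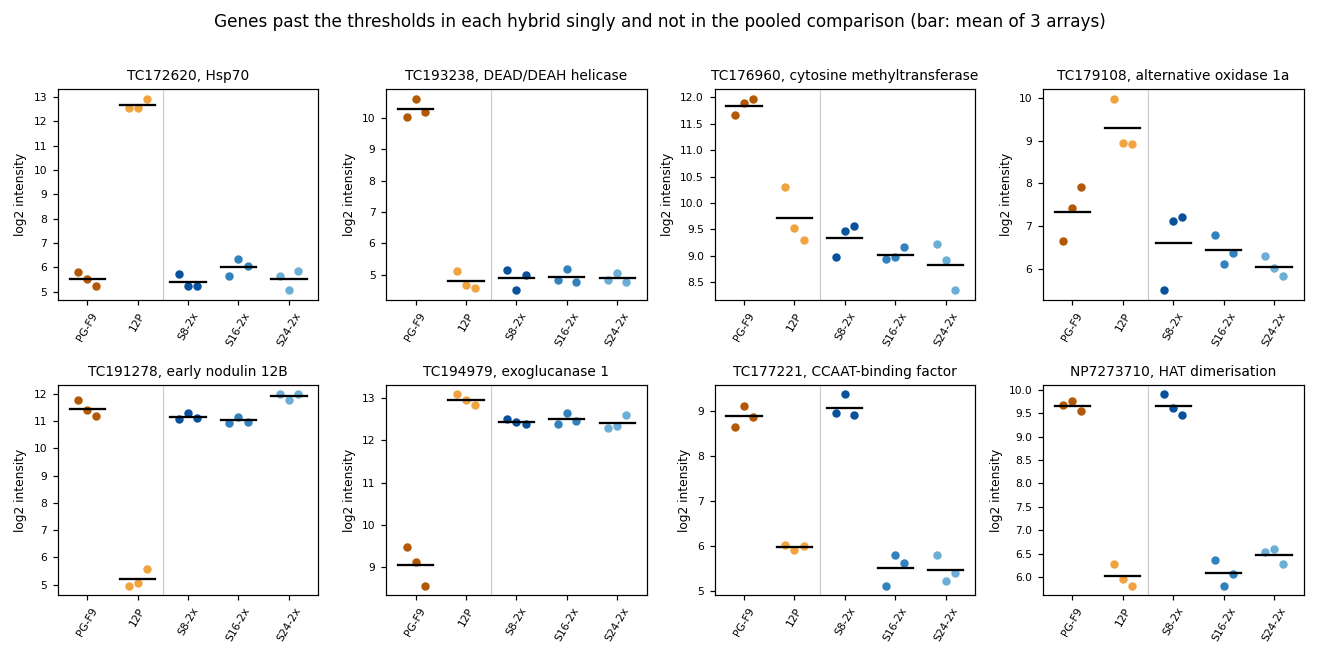
Log2 intensity (vertical axis) on each array of the parents (orange) and the 2x hybrids (blue) for 8 genes that passed in every hybrid singly and not in the pooled comparison, with a bar at the mean of 3 arrays. In TC172620 and TC193238 all hybrids are at the level of the lower parent, in TC176960 and TC179108 below both, and in TC177221 and NP7273710 S8-2x is at the level of PG-F9 and the other hybrids near that of 12P.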

How the data were processed

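Transcription was measured on 1-color NimbleGen arrays with probes for M. truncatula genes. The authors deposited 1 linear intensity per gene and array, quantile normalized between arrays and summarized over up to 3 probes per gene by RMA. Without the 11 negative controls, 41527 genes remained, and their intensities were put on the log2 scale. The 2-class design of the study's methods, unfiltered, set the 9 hybrid against the 6 parental arrays (limma 3.58.1, lmFit and eBayes, under R 4.3.3). Single hybrids, differences among hybrids (F test) and PG-F9 against 12P came from a fit with 1 mean per genotype. Benjamini-Hochberg adjustment covered all genes tested, and a call needed an adjusted p under 0.05 together with a log2 difference beyond 1 in either direction. The genes selected to be named were the 8 largest differences in each direction without overlap of arrays, all called genes with a named function, and those in which the hybrids ranged or deviated most, besides genes marked as chosen after their values were seen. Of the selected genes, NP7262339, TC181887, TC182827 and TC202621 entered the counts over named genes and are not described singly. Members and gene groups were chosen with earlier results of these data known. The names of genes come from the text of the study's annotation, and its values were not used. The negative control level, 6.32, is the mean of the highest negative control of the arrays. For arrays, their number limits the precision. Replicate numbers do not pair the arrays, since residuals of arrays with the same number had a mean correlation of 0.051 (30 pairs) and others of -0.026 (60 pairs). The fits were checked on simulated arrays in which, apart from the changes put in, the genotypes did not differ. The check therefore does not cover calls that differences between genotypes can bring. Alternatives are given in the closing section. Plots were drawn in Python 3.11.15 with pandas 2.3.3 and matplotlib 3.10.9.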

Additional observations from a re-analysis of the deposited data

Results flagged for a closer look

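Among 102 groups of arrays (the parents or the 2x hybrids, in 51 named genes), 3 had a single array far from the others. Chance gives about 1 in 20 in a uniform group, a rate that need not hold here because each group pools several genotypes. The 3 arrays were PG-F9 replicate 1 in the Hsp70 gene NP7259797 (11.21, the next parental array at 10.59), S8-2x replicate 3 in the F-box gene TC198314 (10.93, the next hybrid array at 10.05) and S16-2x replicate 3 in the glucan phosphorylase TC194164 (9.37, the next at 8.60).

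The deviation from the parental mean differed among S8-2x, S16-2x and S24-2x in 10 of the 51 named genes (F test in limma across the 3 hybrids). The adjusted p was 0.000338 for the carboxyl methyltransferase TC173142, 0.0014 for TC182657, 0.00202 for the aquaporin-like TC194885, 0.0029 for the cytochrome P450 TC199769 and 0.00564 for the protein kinase TC193850. It was 0.0123 and 0.0173 for the phosphorylases TC201512 and TC197643, 0.0231 for TC176405, 0.0264 for the alternative oxidase TC199572 and 0.0275 for the RCC1-like gene NP7264687.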

How the results depend on the processing

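The pooled comparison called 76 genes, and counts moved by over 1.5 times in these settings. With the replicate block 45 genes were called, without a threshold on the log2 difference 189, with 1 mean per genotype 468 (230 higher and 238 lower), with all 24 arrays in 3 group means 118, with genotype as a random block 6 (correlation within genotype 0.433) and with genotype means as observations 0. Leaving out a genotype gave 1157 genes without PG-F9 (685 higher and 472 lower), 1373 without 12P (933 and 440), 128 without S8-2x, 128 without S16-2x and 25 without S24-2x. The first pair of settings sets the hybrids against 1 parent only. With the parental mean on the linear scale 109 genes were called, and the share of higher genes fell from 30.3% to 14.7%. Leaving out 1 array gave between 41 and 93 genes. A second quantile normalization, median centering, both filters on dim genes, a floor, eBayes with trend or robust options and keeping the negative controls gave between 72 and 89. In single hybrids, a 2-class fit of the hybrid and the parents gave 105 genes for S8-2x, 73 for S16-2x and 408 for S24-2x, where the difference between the parents is part of the spread. Leaving out 1 array gave 736 to 901 for S8-2x, 593 to 1088 for S16-2x, 1289 to 2299 for S24-2x, 4285 to 7773 genes that differed among the hybrids (4285 without S16-2x replicate 2 and 4341 without S24-2x replicate 3), 4405 to 5125 between PG-F9 and 12P, and 502 to 782 between the 2x and 4x hybrids (611 with all arrays, 318 with genotype as a random block). The replicate block moved no other count by over 1.5 times. Of the 51 named genes 0 changed direction in any of the 35 alternatives, but many calls were lost. Over these genes and alternatives 1273 results kept their call and 500 no longer passed. With 1 array left out, 21 of the 51 genes were called in all 15 fits, 30 were lost in at least 1 and 22 were called in 6 fits or fewer, and 23 were lost with the replicate block. Genes below the negative controls have differences limited by the background.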
